A study of Homo sapiens with 2 samples.

Results

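G1/S entry cells are the cells of 2 Ewing sarcoma lines, CHLA9 and TC71, that carried the most RNA of 8 genes known to peak when a cell commits to DNA replication: CCNE2, CCNE1, CDC6, E2F1, MCM3, MCM5, MCM6 and UNG. A barcode had to hold 5000 or more unique molecular identifiers (UMIs, each standing for 1 captured RNA molecule) and 2000 or more genes, with no more than 15% of its UMIs mitochondrial. In each library the 10% of kept cells with the largest share of UMIs from these 8 genes were taken. This gave 452 of 4524 kept cells of CHLA9 and 173 of 1729 of TC71, or 625 of 6253 in all. All 8 genes served to choose the cells, so their levels in these cells are given as a description, and results concern the remaining genes.

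The study profiled single cells of Ewing sarcoma, a bone and soft tissue tumour driven by a fusion of EWSR1 with an ETS gene such as FLI1. Both lines are established, untreated and represented here by 1 droplet library each, made with the 10X Genomics 3' kit. CHLA9 grew in IMDM with 20% fetal bovine serum and an insulin, transferrin and selenite supplement, and TC71 in RPMI-1640 with 10% serum. Reads of TC71 came from the HiSeq 3000 and those of CHLA9 from that machine and a NovaSeq, so line, medium and sequencer cannot be told apart. With 1 library per line no difference had a replicate check and no test was made, and the intervals below cover counting error only.

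A cell leaves G1 when cyclin D with CDK4 or CDK6, and then cyclin E with CDK2, phosphorylate the RB family and free E2F factors from it. E2F then raises the genes for origin licensing, helicase loading, polymerases, nucleotides and repair, together with its own repressors. Histone messages of the replication-dependent class are made in quantity once S phase runs, and genes of mitosis follow much later under the DREAM, MYBL2 and FOXM1 regulators, which act through a short promoter element called the CHR.

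Promoters shown here were picked because they hold words that E2F or the CHR regulators are known to use. Others do not: MCM10 had no E2F word in its window, and PSRC1 and ARL6IP1, among the genes furthest below the other cells, had no CHR word. The 100 bases before the start site are shown for a rule gene, E2F1, and for 5 genes that were higher in entry cells of both lines, read 5′ to 3′ on the strand of the gene, from RefSeq on GRCh38.p14. Capitals mark the E2F words TTTGGCGC, TTTCCCGC, TTTGCCGC and TTTCGCGC on either strand.
E2F1, chr20:33686386-33686485, minus strand: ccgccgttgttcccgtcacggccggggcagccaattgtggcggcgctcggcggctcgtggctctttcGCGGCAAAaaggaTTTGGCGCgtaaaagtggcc
DTL, chr1:212035648-212035747, plus strand: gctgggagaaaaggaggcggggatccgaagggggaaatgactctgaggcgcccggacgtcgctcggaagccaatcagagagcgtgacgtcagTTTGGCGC
CDC25A, chr3:48188418-48188517, minus strand: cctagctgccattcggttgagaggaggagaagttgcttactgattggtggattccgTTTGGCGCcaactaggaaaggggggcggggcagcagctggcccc
UHRF1, chr19:4909401-4909500, plus strand: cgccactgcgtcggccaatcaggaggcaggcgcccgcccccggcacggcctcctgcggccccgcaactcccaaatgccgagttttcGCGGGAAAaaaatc
HELLS, chr10:94545688-94545787, plus strand: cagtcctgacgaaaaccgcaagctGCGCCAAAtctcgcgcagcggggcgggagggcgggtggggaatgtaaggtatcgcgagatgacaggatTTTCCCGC
ZNF367, chr9:96418371-96418470, minus strand: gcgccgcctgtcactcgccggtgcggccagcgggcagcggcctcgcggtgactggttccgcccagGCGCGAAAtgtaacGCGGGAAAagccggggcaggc
In DTL and HELLS a word ended at the base before the start site.

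The same stretch is shown for 5 genes that were lower in entry cells of both lines, with the CHR words TTTGAA and TTTAAA in capitals. TTTAAA reads the same on both strands and is also found in other AT-rich promoter elements.
PIF1, chr15:64825648-64825747, minus strand: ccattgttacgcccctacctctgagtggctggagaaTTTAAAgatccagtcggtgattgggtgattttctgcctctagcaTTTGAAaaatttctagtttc
CENPA, chr2:26785956-26786055, plus strand: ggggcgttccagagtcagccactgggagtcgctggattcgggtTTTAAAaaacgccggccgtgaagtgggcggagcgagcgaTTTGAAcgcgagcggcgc
PLK1, chr16:23678789-23678888, plus strand: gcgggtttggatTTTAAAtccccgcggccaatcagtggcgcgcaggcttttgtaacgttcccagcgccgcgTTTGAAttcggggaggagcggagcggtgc
CCNB1, chr5:69167050-69167149, plus strand: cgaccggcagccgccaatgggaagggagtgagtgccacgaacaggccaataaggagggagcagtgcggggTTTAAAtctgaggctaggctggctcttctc
KIF20A, chr5:138179012-138179111, plus strand: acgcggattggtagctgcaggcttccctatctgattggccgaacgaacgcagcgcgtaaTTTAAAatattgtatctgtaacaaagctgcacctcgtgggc
PIF1, CENPA and PLK1 held both words in this stretch, and CCNB1 and KIF20A held TTTAAA alone.

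Among the kept cells the CHLA9 library held 174975302 UMIs with a median of 34656 per cell, and the TC71 library 58355173 with a median of 33370. The filters kept 89.1% of the CHLA9 barcodes and 20.4% of those of TC71, where 5869 of 8468 barcodes had under 5000 UMIs. The libraries shared 16 barcodes, of which 3 were among the kept cells and 0 among the entry cells. Doublets were neither called nor removed. Entry cells were close in depth to the others, with a median of 34211 UMIs against 34698.5 in CHLA9 and 32091 against 33406 in TC71, and their median mitochondrial share was 7.41% against 7.61% and 8.99% against 9.05%. By depth, 17.3% of CHLA9 cells in the middle of 5 equal depth groups were entry cells, against 2.77% of the group with the most UMIs. Of 14 markers of blood, epithelial, endothelial and stromal cells, KRT18 and CD79A alone passed the limit on low levels in both lines, and 2 markers in CHLA9 and 3 in TC71 had no UMI at all. The summed level of the 14 was 216 CPM in entry cells and 203 in the others of CHLA9, and 256 and 341 in TC71, where CPM stands for UMIs of a gene per 1000000 UMIs, here summed over the cells of a group.

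The rule score, the CPM of the 8 genes in a cell, formed a continuous range in both libraries with no gap at the limit. In CHLA9 the last cell inside had 1799.31 CPM and the first outside 1799.27, and in TC71 the values were 967.07 and 966.162. The median score was 1992 in entry cells and 780 in the others of CHLA9, and 1086 and 500 in TC71. The limit lay at a lower score in TC71, so the cells chosen there carried fewer of these messages, with a median of 36 rule UMIs per entry cell against 69 in CHLA9. Within 10% of the limit lay 488 cells of CHLA9 and 182 of TC71.

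**Figure D1:**
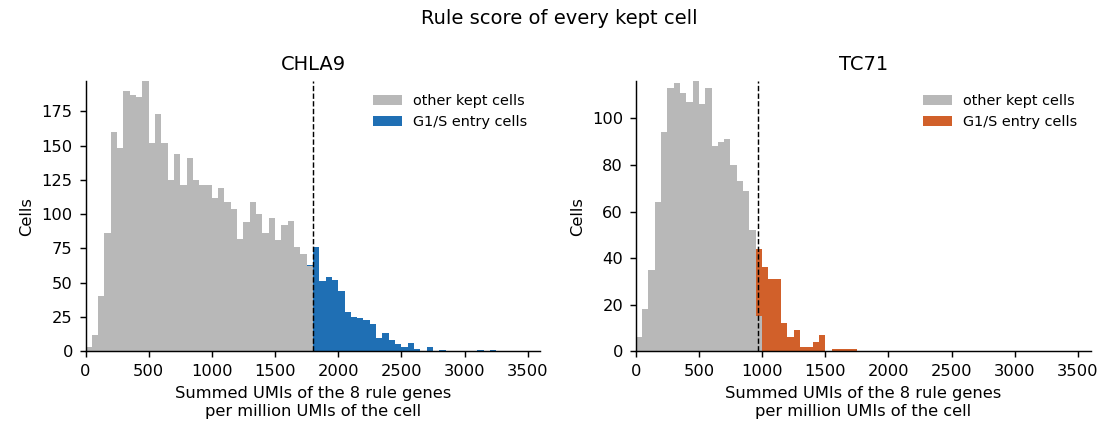
Histogram of the rule score of every kept cell, the summed CPM of the 8 rule genes in the cell, in bins of 50, with entry cells in colour, other kept cells in grey and the limit as a dashed line. The score runs on without a gap through the limit, which sits at 1799.31 CPM in CHLA9 and 967.07 in TC71.

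Cyclin E led the rule genes in relative terms. CCNE2, a cyclin E that activates CDK2, stood at 126 CPM in entry cells and 29.9 in the others of CHLA9, a 4.21-fold difference, and at 112 and 33.3 in TC71, 3.36-fold. CCNE1, the other cyclin E, stood at 26.2 against 6.49 CPM in CHLA9 and 8.87 against 3.45 in TC71. CDC6, the loader of the MCM helicase, differed 2.82-fold and 2.43-fold, and the helicase subunits MCM3, MCM5 and MCM6 between 1.99-fold and 2.31-fold over both lines. MCM3 supplied 35.1% and 35.3% of the rule UMIs and thus weighed most in the choice of cells.

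When each rule gene was left out in turn and the cells chosen again from the other 7, the gene left out was higher in the chosen cells in 8 of 8 cases in each line. Its fold ran from 1.88 for MCM3 to 3.52 for CCNE2 in CHLA9, with a median of 2.23, and from 1.5 to 2.52 in TC71, with a median of 1.88. Between 77.9% and 96.0% of the CHLA9 entry cells, and between 68.8% and 98.3% of those of TC71, were chosen again without 1 of the genes. The lower ends belonged to the choice without MCM3. All 8 genes were listed because they are known to peak at this point, and most of the cells were the same. These folds thus describe the rule and are no independent check of it.

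Entry cells chosen by cyclin E, E2F1 and CDC6 alone and by the MCM genes and UNG alone were overlapping but not identical groups. The 10% highest by CCNE1, CCNE2, E2F1 and CDC6 held 65.3% of the CHLA9 entry cells and 53.8% of those of TC71. For MCM3, MCM5, MCM6 and UNG the shares were 76.1% and 76.3%. Each gene group is part of the rule, so large shares follow from the choice of cells. The cells chosen by both gene groups were 41.6% of either choice in CHLA9 and 32.9% in TC71. Both gene groups come from the rule, so these shares are a description only.

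Levels of all other genes were summed over the entry cells and over the other kept cells of the same library and compared as a log2 ratio of CPM. The comparison took in 7509 genes with at least 10 CPM in both lines. A gene was counted as higher or lower at a log2 ratio of 0.32 or more in either direction, without a test. By this count 486 genes were higher (6.47%) and 417 lower (5.55%) in entry cells of CHLA9, and 395 were higher (5.26%) and 350 lower (4.66%) in TC71. In both lines 158 genes were higher (2.1%) and 150 lower (2%), and 3 were counted in opposite directions. The median log2 ratio of all 7509 genes was -0.004 in CHLA9 and 0.02 in TC71. Of the 158 higher genes, 129 had the larger ratio in CHLA9, and their median log2 ratio was 0.62 there and 0.46 in TC71. Thinning the rule UMIs of CHLA9 to the mean of TC71 before the choice, an alternative added after the data were seen, gave 153 genes higher in both lines. That count does not show how far the ratios of the lines then differed. At 1.5-fold 27 genes were higher and 73 lower in both lines. In TC71, where fewer cells were summed, the number of higher genes ran from 185 with the top 20% of cells to 757 with the top 5%.

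The 10 genes with the largest increase, ranked by the line nearer to 0, were FAM111B, DTL, MCM10, WDR76, UHRF1, XRCC2, ZNF367, CDC25A, CASP8AP2 and MCM4. FAM111B, a protease gene, stood at 217 CPM in entry cells (95% Poisson interval 210 to 224) and 69.5 in the others of CHLA9, and at 68.3 (61.6 to 75.5) and 30.2 in TC71. DTL, the substrate receptor that sends CDT1 to destruction once replication starts, stood at 198 against 77.1 CPM in CHLA9 and 120 against 59.1 in TC71. In neither line did the counting intervals of these pairs meet. MCM10, which helps turn on the loaded helicase, had log2 ratios of 1.38 and 1.01. WDR76, a protein of the DNA damage response, had 1.20 and 0.95, and ZNF367, a zinc finger factor, 1.21 and 0.93.

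Of 12 origin licensing genes, 6 were higher and 0 lower in both lines, and the median log2 ratio was 0.52 in CHLA9 and 0.30 in TC71. MCM4, a helicase subunit outside the rule, stood at 437 against 231 CPM in CHLA9 and 361 against 204 in TC71. ORC1, the subunit of the origin recognition complex known to cycle, had log2 ratios of 0.95 and 0.69, whereas ORC2, a stable subunit, had 0.02 and 0.11 with overlapping counting intervals. ORC5 had 0.01 and -0.35, and its TC71 ratio was 0.12 when the rule left out MCM3. MCM2 had 0.56 and 0.69, and CDT1, the licensing factor, 0.78 and 0.39.

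Of 17 counted genes of helicase assembly and fork firing, 8 were higher and 1 lower in both lines, with medians of 0.59 and 0.31, and of 0.47 and 0.13 when every cell was thinned to 5000 UMIs. GINS2, a part of the active helicase, stood at 122 against 64.7 CPM in CHLA9 and 128 against 88.2 in TC71. CLSPN, the adaptor between forks and the CHEK1 kinase, had log2 ratios of 0.90 and 0.56. CDC45, the helicase cofactor, had 0.99 and 0.28 and so passed 0.32 in CHLA9 alone. The lower gene was DBF4, the activator of the CDC7 kinase that fires origins, with 56.5 against 86.5 CPM in CHLA9 and 77.5 against 107 in TC71. DBF4 was higher in mitotic cells, by log2 ratios of 1.24 and 0.98. RECQL4, a helicase of replication start, was at 29.9 against 26 CPM in CHLA9 and 8.87 against 13.3 in TC71, where the direction turned (log2 ratio 0.03) when every cell was thinned to 5000 UMIs.

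Of 24 counted polymerase and fork genes, 10 were higher and 0 lower in both lines, with medians of 0.55 and 0.31. PCNA, the sliding clamp, stood at 502 against 278 CPM in CHLA9 and 355 against 254 in TC71. FEN1, the nuclease that trims Okazaki fragments, stood at 211 against 119 CPM and 188 against 131. RFC4, a clamp loader subunit, had log2 ratios of 0.83 and 0.46, and DSCC1, of the loader that serves cohesion, 0.95 and 0.47. RPA3, the small subunit of the single-strand binding complex, had 0.03 and -0.04.

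Nucleotide genes differed less. Of 19 counted, 4 were higher and 0 lower in both lines, and the medians were 0.27 and 0.19. TK1, thymidine kinase, stood at 191 against 89.1 CPM in CHLA9 but 94.4 against 72.4 in TC71. PPAT, of purine synthesis, had log2 ratios of 0.38 and 0.34, and the nucleoside transporter SLC29A1 0.65 and 0.39. DTYMK, thymidylate kinase, had -0.34 and -0.15.

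Chromatin assembly and DNA methylation genes held 4 higher and 0 lower of 13 counted, with medians of 0.30 and 0.26. UHRF1, which brings the maintenance methylase to new DNA, stood at 272 against 126 CPM in CHLA9 and 91.0 against 47.3 in TC71. HELLS, a remodeller needed for methylation, had log2 ratios of 0.94 and 0.58. CHAF1A and CHAF1B, subunits of the histone chaperone CAF-1, had 0.82 and 0.66, and 0.92 and 0.71. ASF1A, another histone chaperone, had -0.25 and -0.13.

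Repair and replication stress genes made the longest series. Of 36 counted, 19 were higher and 0 lower in both lines, with medians of 0.52 and 0.34. MSH6, of mismatch repair, stood at 347 against 178 CPM in CHLA9 and 182 against 104 in TC71. XRCC2, of homologous recombination, stood at 139 against 71.8 CPM and 113 against 59.0. EXO1, the nuclease that extends excision tracts, had log2 ratios of 1.21 and 0.82.

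FANCA, FANCI, FANCD2 and FANCC, Fanconi anemia genes that act on interstrand crosslinks and stalled forks, did not move as 1 set. FANCI and FANCC were the smallest of the repair list by mean log2 ratio, so these genes do not stand for the whole family. Other Fanconi anemia genes are not reported here. FANCA, of the core complex, stood at 55.8 against 35.1 CPM in CHLA9 and 50.4 against 34 in TC71. FANCI and FANCD2, the pair that the core complex ubiquitinates, had log2 ratios of -0.04 and 0.13, and of 0.18 and 0.10, and FANCC had -0.06 and 0.06. FANCI and FANCC had overlapping counting intervals in both lines, and FANCD2 had them in TC71. In histone-high cells, the 10% of kept cells with the largest share of histone UMIs, FANCI had 0.61 and 0.35 and FANCD2 0.46 and 0.29.

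The E2F family split by member. Of 18 counted E2F and RB regulators, 4 were higher and 1 lower in both lines, and the medians were 0.22 and 0.25. The activator E2F2 stood at 111 against 38.3 CPM in CHLA9 (interval of entry cells 106 to 117) and 23.9 against 15.3 in TC71 (20.1 to 28.3). E2F3, also an activator, had log2 ratios of 0.70 and 0.44, and -0.16 in TC71 after thinning every cell to 5000 UMIs. E2F8, an atypical repressor, stood at 54.2 against 22.4 CPM and 22.9 against 15.4. E2F7, its partner, had 1.11 and 0.31, with overlapping intervals in TC71. The repressors of quiescent cells had log2 ratios of -0.12 and 0.25 for E2F4 and -0.38 and -0.26 for E2F5.

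The pocket proteins lay near 0. RB1 had log2 ratios of 0.22 and 0.23, RBL1 0.19 and 0.25, and RBL2 -0.19 and -0.15, with overlapping intervals in both lines for RBL2. TFDP1, the E2F dimer partner, had 0.22 and 0.21. MYBL2, a regulator of mitotic genes, had 0.24 and 0.25, and MYB 0.38 and 0.44. FOXM1, the driver of mitotic genes, had -0.33 and -0.23. The lower member was CCNF, the cyclin F of the ubiquitin ligase that acts on E2F proteins late in the cycle, with 22.9 against 50.3 CPM in CHLA9 and 8.51 against 29.7 in TC71.

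Among cyclins, kinases and inhibitors of G1, of 15 counted, 2 were higher and 6 lower in both lines, with medians of -0.02 and -0.01. CCND1, a D-type cyclin that pairs with CDK4, stood at 2615 against 2500 CPM in CHLA9 and 1484 against 1447 in TC71, where the intervals met. CCND3, another D-type cyclin, stood at 29.2 against 19.7 CPM in CHLA9, past the limit, and at 17.2 against 14.6 in TC71, where it did not pass. CDK4 had log2 ratios of 0.24 and 0.00, and CDK2, the partner of cyclin E, 0.79 and 0.25.

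CDC25A, the phosphatase that removes the brake from CDK2, stood at 116 against 50.1 CPM in CHLA9 and 69.7 against 39.1 in TC71. FBXO5, the inhibitor of the anaphase-promoting complex that holds a cell past the G1/S point, stood at 184 against 89.2 CPM and 158 against 112. These were the 2 higher members.

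CDKN1B, the p27 inhibitor of CDK2, stood at 14.8 CPM in entry cells (13.0 to 16.9) against 25.4 in the others of CHLA9, and at 22.2 (18.5 to 26.4) against 32.4 in TC71. The INK4 inhibitors CDKN2C and CDKN2D had log2 ratios of -0.49 and -0.50, and of -0.57 and -0.42. CDKN3, CKS1B and CCNA2, which also serve G2 and mitosis, had -1.88 and -0.48, -0.39 and -0.33, and -0.63 and -0.59. All 6 were higher in mitotic cells than in the rest of their library, by log2 ratios from 0.29 to 1.39. SKP2, which removes p27, had 0.20 and -0.01 in entry cells, FBXW7, which removes cyclin E, -0.02 and 0.23, and MYC -0.12 and -0.25.

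**Figure D2:**
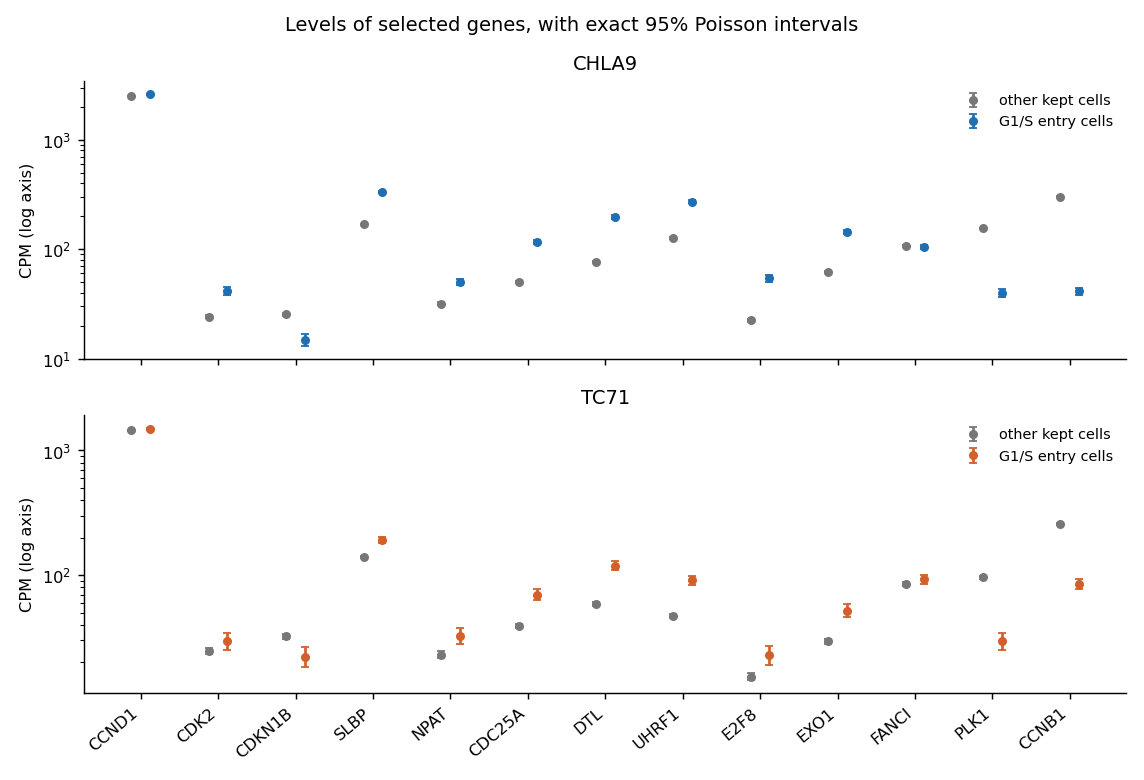
CPM of 13 named genes in entry cells (colour) and other kept cells (grey) of CHLA9 and TC71 on a log axis, with exact 95% Poisson intervals that cover counting error only. SLBP, CDC25A, DTL, UHRF1, E2F8 and EXO1 lie higher in entry cells of both lines, CDKN1B, PLK1 and CCNB1 lower, and CCND1 nearly level.

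Some genes that make or process histone messages were higher in entry cells. Of 5 counted histone mRNA regulators, 3 were higher and 0 lower in both lines, with medians of 0.66 and 0.46. SLBP, which binds the stem-loop at the end of histone messages, stood at 334 against 170 CPM in CHLA9 and 192 against 140 in TC71. NPAT, the histone locus factor that cyclin E with CDK2 activates, had log2 ratios of 0.66 and 0.49, and its partner CASP8AP2 1.01 and 0.83. LSM10, of the particle that processes the message end, stood at 124 against 124 CPM and 117 against 122.

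Of 70 replication-dependent histone genes, 9 passed 10 CPM in both lines, and most of their messages lack the poly(A) tail that the 3' kit captures. Of these 9, 5 were higher and 0 lower in both lines, and the medians were 0.54 and 0.47. HIST1H1D, a linker histone, stood at 216 against 117 CPM in CHLA9 and 40.3 against 28.0 in TC71, and HIST1H1C at 138 against 84.4 and 226 against 150. HIST1H4C, the most counted of them, had 0.27 and 0.25, under the limit. In histone-high cells the list median was 1.82 and 1.81, by construction of that group. The summed level of all 70 was 2931 CPM in entry cells of CHLA9, 2219 in the others and 6394 in histone-high cells, and in TC71 2232, 1793 and 4790.

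Entry cells and histone-high cells, each 10% of a library, are set here beside the 10% that unrelated groups of this size would share. In CHLA9 they had in common 31 of 452, or 6.86% (exact binomial interval 4.71 to 9.59). In TC71 it was 14 of 173, or 8.09% (4.49 to 13.2). These intervals treat the cells of 1 library as independent, so they do not test a difference from 10%. When every cell was thinned to 5000 UMIs the CHLA9 share was 10.2%. With the top 20% of cells the shares were 19.7% and 18.8%, again near the size of the groups, and with the top 5% 1.33% in CHLA9. No entry cell was among the mitotic cells, the 10% with the largest share of UMIs from 35 G2 and mitosis genes, where unrelated groups would share 10%. That is 0 of 452 and 0 of 173, for which the exact binomial upper limit is 0.813% and 2.11%.

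The following genes were picked after their values were seen, as higher in entry cells with a ratio under 0 in histone-high cells, and of them ZNF367 alone passed 0.32 in the lower direction in histone-high cells of both lines. MSH6 had log2 ratios of 0.96 and 0.81 in entry cells but -0.22 and -0.34 in histone-high cells of CHLA9 and TC71. DTL had 1.36 and 1.02 against -0.47 and -0.19, and ZNF367 1.21 and 0.93 against -0.66 and -0.39. CDC25A, with 1.21 and 0.84, had -0.03 and -0.10 in histone-high cells.

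Others were higher in both groups. E2F8 had 1.27 and 0.57 in entry cells and 1.20 and 0.52 in histone-high cells, CDC45 0.99 and 0.28 against 0.95 and 0.26, and FBXO5 1.04 and 0.50 against 0.85 and 0.60. PCNA and FEN1 lay between, with 0.61 and 0.29, and 0.62 and 0.22, in histone-high cells. All ratios are of a group over the rest of its own library, so the groups share most of the cells they are compared with.

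**Figure D3:**
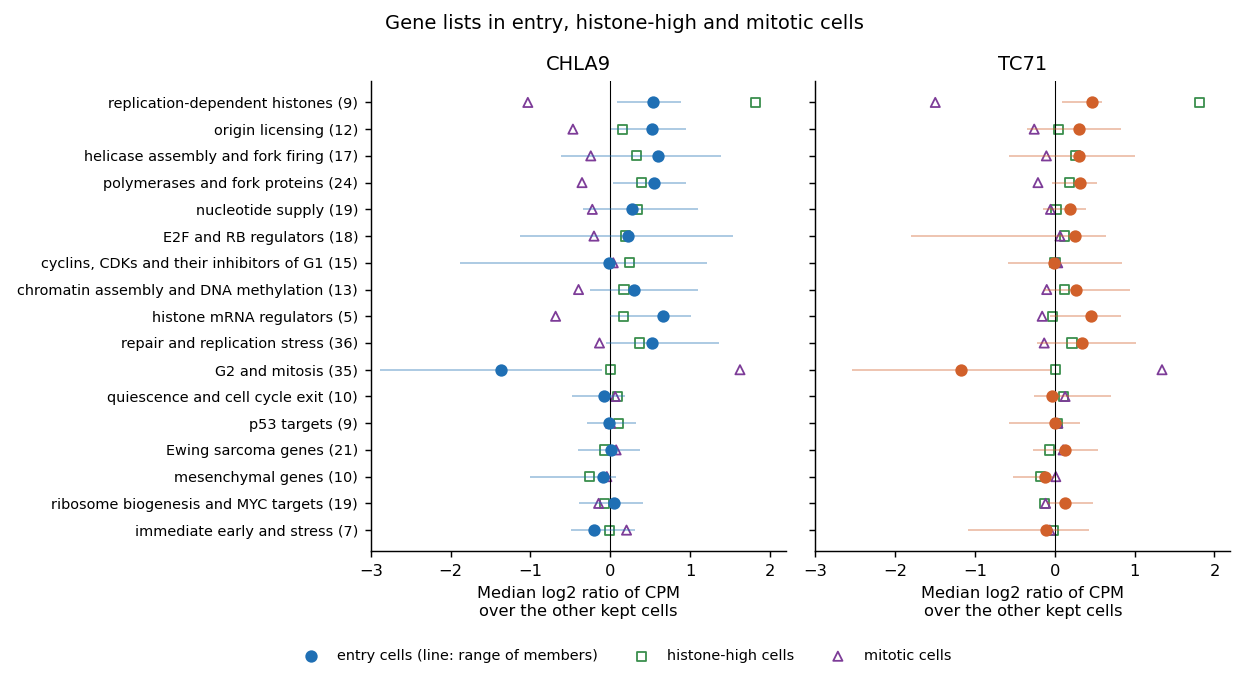
Median log2 ratio of CPM over the other kept cells for 17 gene lists in entry cells (filled circles), histone-high cells (squares) and mitotic cells (triangles) of CHLA9 and TC71, with the number of genes counted in brackets and a line for the range of members in entry cells. Entry cells lie right of 0 for the replication lists and at -1.36 and -1.18 for G2 and mitosis, and the histone median is 0.54 and 0.47 in entry cells against 1.82 and 1.81 in histone-high cells.

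G2 and mitosis genes had the largest median difference of the 18 lists. Of 35 counted, 0 were higher and 32 lower in both lines, and the medians were -1.36 and -1.18. PIF1, a DNA helicase outside the list, was the lowest gene of all, at 2.28 CPM in entry cells (1.6 to 3.16) against 54.0 in the others of CHLA9 and 3.90 (2.45 to 5.91) against 40.6 in TC71. CCNB1, cyclin B1, stood at 41.2 against 303 CPM and 84.8 against 256. PLK1, the polo kinase of mitosis, stood at 39.9 against 155 and 29.4 against 96.4.

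CENPA, the centromeric histone loaded after mitosis, had log2 ratios of -2.38 and -2.54, AURKA, the spindle pole kinase, -2.46 and -2.30, and KIF20A, a kinesin of cytokinesis, -2.67 and -1.93. UBE2C, CDCA3, ARL6IP1 and PSRC1 completed the 10 lowest genes. The members that did not pass 0.32 in both lines included ANLN, with -0.11 and -0.49, and PTTG1, securin, with -1.80 and -0.05. Leaving the mitotic cells out of the comparison group moved the list medians to -1.03 and -0.98 and the number of genes lower in both lines to 99.

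Windows from 250 bases before to 50 after the start site were taken from RefSeq for all genes with a match, 27305 in all. Of the 150 genes lower in both lines, 127 (84.7%) had a window, and 75 of these windows (59.1%) held a CHR word, against 15.3% of the windows of all counted genes, 24.3% of all promoters and 13.5% of those of higher genes. E2F words were in 3.33% of all promoters, 6.39% of those of counted genes and 3.15% of those of lower genes. Of the 158 higher genes, 126 (79.7%) had a window and 34 of these held an E2F word. Since under 80% of the higher genes had a window, a check of their share is void, and no comparison was made from it. Overlapping E2F words counted a window once, and a word is a match of letters only.

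Along the whole rule score the lists changed at different paces. When the cells were cut into 10 equal bins by score, from the lowest to the highest bin of CHLA9, the summed level of the polymerase and fork genes ran from 1485 to 3142 CPM and that of the G2 and mitosis genes from 14075 down to 2879. Histone messages ran from 1168 in the lowest bin to 2917 in bin 8, 2686 in bin 9 and 2937 in the highest. In TC71 the polymerase and fork genes ran from 1588 to 2477 CPM, mitosis from 8838 to 2889 and histones from 1280 to 2232. Repair genes stood at 3056, 3341 and 3713 CPM in the upper 3 bins of CHLA9.

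**Figure D4:**
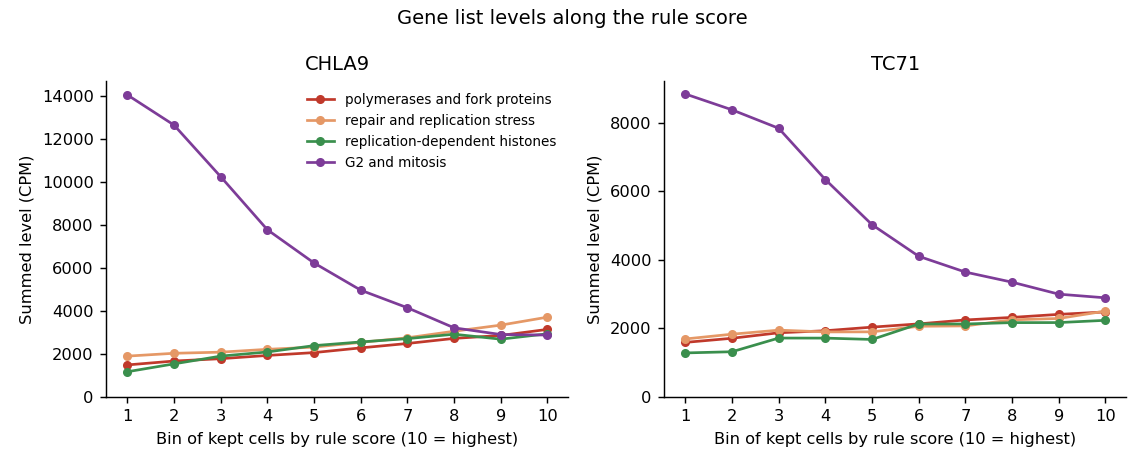
Summed CPM of 4 gene lists in 10 equal bins of the kept cells ordered by rule score, from lowest (1) to highest (10, which holds the entry cells), in CHLA9 and TC71. Mitosis genes go down from 14075 and 8838 CPM to 2879 and 2889 CPM, while polymerase, repair and histone lists go up.

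Entry cells varied less in replication genes than in histones, and the other cells also varied widely in histones. Over 56 replication genes outside the rule, 99.8% of CHLA9 entry cells and 93.6% of TC71 entry cells lay above the median of the other cells, and 3.1% and 2.89% lay above it for G2 and mitosis genes. For histones the shares were 91.2% and 76.9%. The quartiles of the histone level in entry cells were 1142 and 4319 CPM in CHLA9 and 1044 and 3181 in TC71, against 6040 and 7118, and 4493 and 5438, for the replication genes. In the other cells the histone quartiles were 301 and 4108 CPM in CHLA9 and 368 and 3030 in TC71. Their quartiles for the replication genes were 3276 and 5238, and 3362 and 4436.

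The spread in histones was followed by setting the 150 CHLA9 entry cells with the least histone RNA against the 150 with the most, and likewise 57 against 57 in TC71. This split and the genes named for it were chosen after the data were seen. It put a median histone level of 761 beside 4698 CPM in CHLA9 and 641 beside 3530 in TC71, at median depths of 32084.5 and 35630 UMIs and of 30546 and 32496.

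DTL was higher in the entry cells with the least histone RNA, at 251 CPM (237 to 265) against 149 (138 to 159) in CHLA9 and 143 (126 to 162) against 95.6 (82.3 to 110) in TC71. MYC, the growth regulator, stood at 205 against 150 CPM and 312 against 172. The intervals of DTL and MYC did not meet in either line.

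Across this split the G2 and mitosis genes differed between the lines in direction for part of the list. Of 35, 34 were lower in the CHLA9 entry cells with the least histone RNA and 22 in those of TC71, 22 of them in both lines. The median log2 ratio of least over most histone RNA was -1.19 and -0.35. These counts go by sign alone. The share of all counted genes was not taken for this split, so the counts have no background beside them. CDK1, the mitotic kinase, was lower in the entry cells with the least histone RNA, at 57.5 against 131 CPM in CHLA9 and 40.2 against 120 in TC71. KIF11, the spindle kinesin, stood at 60.9 against 152 CPM and 44.9 against 101, and GTSE1 at 26.7 against 74.7 and 26.2 against 61.5. E2F8 stood at 40.9 against 65.1 CPM and 12.8 against 27.9, and PCNA at 432 against 573 and 308 against 409. In TC71 13 members were higher in the entry cells with the least histone RNA, among them CCNB1 at 135 against 60.5 CPM, CDC20 at 100.3 against 38.2, DLGAP5, a spindle protein, at 126 against 50.7 and PLK1 at 44.3 against 23.8. In CHLA9 CCNB1 stood at 30.9 against 48.1 CPM and CDC20 at 32.3 against 42.4.

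Cell cycle phases were called with Seurat from 38 S genes, the rule genes left out, and 54 G2M genes, scoring genes seen in 10 or more cells. Of the CHLA9 entry cells 99.1% were placed in S (97.7 to 99.8), against 29.6% of the other cells, and of the TC71 entry cells 97.7% (94.2 to 99.4), against 46.0%. The scores share genes with the lists above and weigh them against genes of like level, so the calls are another view of the same counts. In TC71 the call depended on the genes kept, since scoring on all genes placed 68.8% of the entry cells in S and 28.9% in G1.

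Over all 7509 genes 4.1% were counted in the same direction in both lines, so counts of 0 in short lists are near the background. Counts of 0 were found for 10 counted genes of quiescence and exit, with medians of -0.07 and -0.03, 9 p53 targets, with -0.02 and 0.00, and 19 genes of ribosome biogenesis and MYC targets, with 0.04 and 0.13. Of 7 immediate early and stress genes, HSPA1A alone was lower in both lines, at 24.9 against 33.2 CPM in CHLA9 and 30.7 against 65.0 in TC71, and the medians were -0.21 and -0.12.

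Of 21 counted Ewing sarcoma genes 0 were higher or lower in both lines, beside 4.1% of all genes, with medians of 0.01 and 0.13 and summed levels of 9074 against 8829 CPM in CHLA9 and 6345 against 5951 in TC71. FLI1, whose 3' reads can come from the fusion, stood at 39.7 against 38.0 CPM and 23.8 against 22.9, with overlapping intervals in both lines. EWSR1 had log2 ratios of -0.27 and 0.09. Of 10 mesenchymal genes 0 were called in both lines, with medians of -0.09 and -0.13, though LMNA, the A-type lamin, stood at 147 against 294 CPM in CHLA9 and at 91.5 against 101 in TC71.

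The 3 genes with the largest difference of ratio between the lines were taken in each direction. E2F2, with 1.54 in CHLA9 and 0.65 in TC71, KMT5C, a histone H4 methyltransferase, with 0.99 and -0.14, and IER3, an immediate early gene, with 0.74 and -0.57, were further up in CHLA9. The IER3 ratio in CHLA9 was -0.31 when every cell was thinned to 5000 UMIs. CCNB2, cyclin B2, with -2.45 and -0.64, PTTG1, with -1.80 and -0.05, and CDC20, the anaphase activator, with -2.62 and -1.14, were further down there. CCNB2 stood at 63.1 CPM in TC71 entry cells and 21.6 in CHLA9 entry cells, and PTTG1 at 193 and 53.4. The summed level of all 35 G2 and mitosis genes was 2889 CPM in TC71 entry cells and 2876 in CHLA9 entry cells. With 1 library per line, these differences were not tested.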

How the data were processed

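Single cells of 2 established Ewing sarcoma lines, 1 library each, were profiled with a 10X Genomics 3' kit. The authors deposited gene by barcode matrices of raw UMI counts over 33538 genes; the submitters' processing notes name Cell Ranger 3.1.0 and hg38. From these, barcodes were filtered at 5000 UMIs, 2000 genes and 15% mitochondrial UMIs, and the 10% of cells highest by 8 rule genes were set against the other cells of their library. Kept cells held 174975302 and 58355173 UMIs. Members and lists were chosen with earlier results of these data known.

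UMIs were summed per group and given as CPM with exact 95% Poisson intervals. Intervals of shares are exact binomial (Clopper-Pearson). These intervals hold counting error alone. With 1 library per line no test was possible. A difference was counted at a log2 ratio of 0.32 among genes of at least 10 CPM in both lines, the rule genes left out. Named genes were the rule genes, all counted members of the lists of G1 cyclins and inhibitors, E2F and RB regulators and histone mRNA regulators, the 4 largest and 2 smallest of each other list by mean log2 ratio, the 10 largest and 10 smallest of all genes by the line nearer to 0, the 3 largest differences between lines in each direction, and FEN1, FANCA, FANCD2, FANCI, FLI1 and EWSR1. Others are said to be chosen after their values were seen. Doublets were not removed.

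Python 3.11.15 with NumPy 2.4.6, SciPy 1.17.1, pandas 2.3.3 and matplotlib 3.10.9 was used, and R 4.3.3 with Seurat 5.3.0 for phases. The scripts were tested on simulated data. Alternatives changed the share of cells taken, depth per cell, filters, comparison group, rule genes, minimum level, fold, genes scored for phase, and promoter words.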

Additional observations from a re-analysis of the deposited data

Results flagged for a closer look

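For 7 named genes the log2 ratio of CPM in entry over other cells had opposite signs in CHLA9 and TC71, each beyond its counting interval. These contrasts were not tested, with a single library of each line. RECQL4, a replication helicase, had 0.20 and -0.58. BCL11B, a zinc finger factor, had -0.13 and 0.54. TMSB10, an actin-binding peptide, had 0.069 and -0.058. ODC1, of polyamine synthesis, had -0.40 and 0.15. JUN had -0.25 and 0.42, KRT18, a keratin, 0.19 and -0.47, and IER3 0.74 and -0.57. IER3 was named for its large difference between the lines. When every cell was thinned to 5000 UMIs, IER3 turned to -0.31 in CHLA9 and RECQL4 to 0.026 in TC71. KRT18 turned to 0.053 in TC71 when the rule left out MCM3. Of all 7509 genes, 2934 did not share a sign between the lines, whatever their intervals, and 3 were counted in opposite directions.

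The barcodes removed by the filters also held rule gene UMIs. The 553 removed in CHLA9 had 520 CPM (496 to 544), against 953 in the kept cells, and the 6739 removed in TC71 had 374 (365 to 383), against 562. A count of 3 UMIs would be 0.854 and 0.176 CPM.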

How the results depend on the processing

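No paired analysis was possible because a single library stands for a line. Across the alternatives, 125 of 150 gene counts, 722 of 756 list medians, 115 of 126 overlap shares and 12 of 18 phase shares moved by less than the limit set for each. Of 6048 log2 ratios of named genes, 819 moved and 6 reversed. A ratio was labelled reversed only if the gene had been counted as higher or lower in that line and its sign then changed. Sign changes of smaller ratios are not among the 6. The cause of each change was not tested. Line pairs below are CHLA9, then TC71.

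Thinning every cell to 5000 UMIs gave reversed log2 ratios for IER3 in CHLA9 (-0.31) and, in TC71, for E2F3 (-0.16), E2F6 (-0.026) and RECQL4 (0.026), and the rule without MCM3 did so in TC71 for ORC5 (0.12) and KRT18 (0.053). Thinning gave 710 lower genes in CHLA9, 887 higher and 1087 lower genes in TC71, medians of 0.32 for origin licensing in CHLA9, 0.47 and 0.13 for the helicase list, -1.20 and -0.80 for mitosis and 0.37 for histones in TC71, 10.2% of CHLA9 entry cells among histone-high cells, and 28.1% and 17.9% of cells chosen by both rule gene groups.

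With the top 5% of cells, 1.33% of CHLA9 entry cells were histone-high, both rule gene groups chose 27.4% and 16.3%, and 757 genes were higher in TC71. With the top 20% these were 19.7% and 18.8% histone-high, 63.6% and 44.5%, and 185. The mitosis median in TC71 was -1.28 at 10% mitochondrial UMIs and -1.05 without the 10% of cells with the most UMIs. Means of per-cell CPM gave 0.67 for histones and -1.24 for mitosis in CHLA9. Without mitotic cells in the comparison group, 99 genes were lower in both lines, mitosis had -1.03 and -0.98, and histones 0.32 in TC71. Without MCM3 histones had 0.40 and 0.31, mitosis -1.50 and -1.31, and 4.20% of CHLA9 entry cells were histone-high.

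At 5 CPM TC71 had 595 higher and 547 lower genes. At 25 CPM 89 were higher in both lines, with 237 and 237 higher and lower in CHLA9 and 175 and 156 in TC71. With 3 UMIs as the only minimum the counts were 596 and 396 in both lines, 1640 and 1430 in CHLA9 and 1850 and 1305 in TC71. At 1.5-fold they were 27 and 73, 140 and 136, and 36 and 107. Thinned, 3.98% and 12.1% of entry cells were placed in G1 and 95.8% and 86.7% in S. Scoring on all genes put 28.9% of TC71 entry cells in G1 and 68.8% in S. With 2 E2F words, 4.52% of counted promoters held one. Of the alternatives added after the data were seen, thinning the CHLA9 rule UMIs gave 153 higher and 152 lower genes in both lines, and leaving out barcodes found in both libraries gave 155 and 148.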

Other observations

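Of the 158 genes higher in entry cells of both lines, 93 were in none of the lists, and the genes named here were chosen after their values were seen. They were picked singly and no list of their kind was counted. ESCO2, the acetylase that locks cohesin on new DNA, had log2 ratios of 0.95 in CHLA9 and 0.47 in TC71, DDX11, a helicase, 0.77 and 0.49, and CDCA5, sororin, 0.64 and 0.34. MMS22L and TONSL, partners that bind new chromatin at stalled forks, had 0.70 and 0.62, and 0.59 and 0.48. RBBP8, of end resection, had 0.81 and 0.45, FIGNL1 0.73 and 0.53, and POLQ, the polymerase of end joining by short homologies, 0.92 and 0.42. ATAD2, a bromodomain ATPase, stood at 554 against 329 CPM in CHLA9 and 330 against 208 in TC71. CDCA7 had 0.68 and 0.58 in entry cells and -0.62 and -0.59 in histone-high cells.

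PKMYT1 and MASTL, kinases that hold back and promote entry into mitosis, were also higher, with 1.09 and 0.52, and 1.22 and 0.47. INSR, the insulin receptor, had 0.71 and 0.69, TFRC, the transferrin receptor, 0.39 and 0.41, and SLC2A1, a glucose transporter, 0.34 and 0.35. Among the 150 lower genes, 109 were in none of the lists. KPNA2, an importin, had -1.52 and -1.05, KDM5B, a histone H3 demethylase, -1.14 and -0.88, MXD3, a MAX partner, -1.13 and -1.31, and the transcription factors ZEB1, HES1 and ZIC2 -0.37 and -0.72, -0.33 and -0.33, and -0.43 and -0.37.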
